A study of Bos taurus with 10 samples.

Results

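BMP15, GDF9, OOSP2, ZP2, ZP3 and ZP4 are genes that the growing oocyte transcribes for export, and all 6 were found by symbol among the 28700 genes of the table that stand for 1 locus. They were followed in bovine embryos whose zygotes had been injected either with siRNA that targets H1FOO, an oocyte form of histone H1 (KD, for knockdown), or with negative control siRNA (NC). Poly(A) RNA was sequenced from KD morulae and NC morulae on day 5.5 after insemination (3 libraries each), and from KD and NC embryos of the 8/16-cell stage on day 4 (2 libraries each). Every embryo had been injected at the zygote stage, so no group is uninjected. The number of embryos behind a library, and whether replicates came from separate collections, are not given, so p-values measure the spread between these libraries.

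GDF9 and BMP15 are ligands of the transforming growth factor beta family that the oocyte secretes to the granulosa and cumulus cells around it, where they act through paired receptors and SMAD proteins on growth, steroid production and cumulus expansion. ZP2, ZP3 and ZP4 are the glycoproteins of the bovine zona pellucida, the coat that binds sperm and encloses the embryo until hatching. OOSP2 is a small secreted protein of the oocyte whose role is less well defined. Transcripts of this kind are made before ovulation and inherited by the embryo, and most such maternal messages are cleared while the embryonic genome is switched on, which in cattle falls around the 8/16-cell stage.

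Levels are in FPKM (fragments scaled to gene length and library size), so each is a share of its library per unit of length. A fall or loss between the stages, and the remnant after it, are meant in such shares. The amount of message per embryo is not known from them. Summed FPKM ran from 345464 to 669836 per library, and 11103 to 11872 genes reached 1 FPKM. Pearson correlations between libraries across genes were 0.938 to 0.971 within a group. H1FOO, the target of the siRNA, had lower values in the KD libraries at each stage, at 0.649 and 0.0736 FPKM in KD against 50.8 and 10.8 FPKM in NC 8/16-cell embryos, and at 0.0610, 0.191 and 0.251 FPKM in KD against 0.294, 1.05 and 2.17 FPKM in NC morulae. Neither difference passed in limma (adjusted p 0.104 at the 8/16-cell stage and 0.374 in morulae). The KD libraries of the 8/16-cell stage stand apart in 1 respect: the MIR2887 gene pair holds 27.1% and 8.06% of their summed FPKM and 0 in every other library. With either of these libraries left out, the log2 differences between the stages in KD embryos stayed negative for all 6 genes. The other library with this feature then remains, so leaving out 1 cannot show what the feature does to the falls described next. Embryo genes were present in every library, with the summed level of 8 such markers at 507 to 838 FPKM in KD morulae, 738 to 1042 FPKM in NC morulae, 336 and 384 FPKM in KD 8/16-cell embryos and 391.9 and 520.4 FPKM in NC 8/16-cell embryos.

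Between the 8/16-cell stage and the morula, all 6 oocyte genes fell in both treatments, and no morula library reached the lowest 8/16-cell library for any of them. The columns of the stages differ in how symbols with several loci were filled. Whether a difference in processing bears on these falls was not tested, and it cannot be told apart from stage. BMP15 and OOSP2 fell furthest: by group mean they kept 1.35% to 4.17% of their 8/16-cell level, GDF9 kept 4.85% to 8.50% and the zona genes 13.7% to 19.5%. Single NC morula libraries set some of these limits: OOSP2 kept 0.377% and GDF9 3.12% without NC replicate 2, and ZP2 kept 10.9% without NC replicate 3. Falls of this size were uncommon in the table. In limma, with Benjamini-Hochberg adjustment over 11761 genes, 6 of 6 fell in KD embryos, where 14.8% of all genes fell, and 6 of 6 in NC embryos, where 18.2% did. The 6 were chosen with earlier results of these data known, so these counts describe them and are no independent support. Only genes averaging 1 FPKM or more over the libraries were tested. GDF9 averaged 0.854 FPKM in KD and 0.609 FPKM in NC morulae and met this limit through its 8/16-cell values. Values that did not overlap, lower in morulae, were found for 36.7% of genes in KD and 32.6% in NC embryos. The median log2 difference of the 6 genes was -2.42 in KD and -2.68 in NC embryos, beside -0.18 and -0.07 over all genes tested. Among all genes tested, 614 rose (5.22%) and 1741 fell in KD, and 1484 rose and 2142 fell in NC embryos (30.8% in either direction); with quantile normalization these counts were 1121 and 1027 in KD and 1857 and 1957 in NC embryos, and the 6 genes fell in both treatments under either. These medians and all log2 differences below are on the log2(FPKM + 1) scale, which understates the change of genes as low as these are in morulae.

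**Figure D1:**
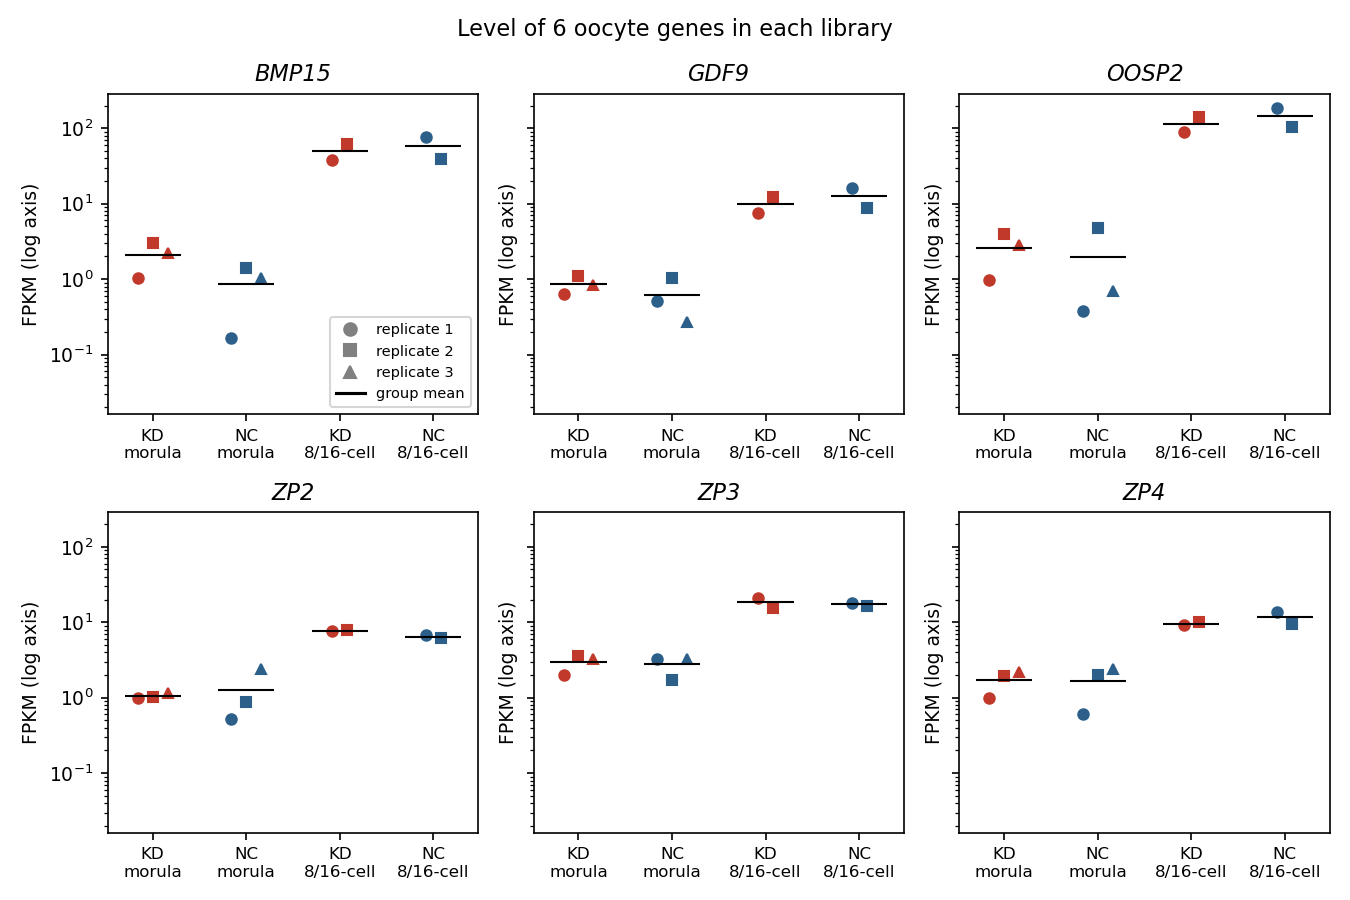
FPKM of 6 oocyte genes (log axis, the same in every panel) in each of 10 libraries; points are libraries, marker shapes are replicate numbers, red is KD, blue is NC and lines are group means. Every morula point lies under every 8/16-cell point of the same gene, while KD and NC points of the morula stage overlap in all 6 panels.

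BMP15, the partner of GDF9 in signalling to granulosa cells, stood at 1.03, 2.98 and 2.21 FPKM in KD morulae against 38.0 and 61.5 FPKM in KD 8/16-cell embryos. In NC embryos it stood at 0.165, 1.42 and 1.03 FPKM in morulae against 75.7 and 39.2 FPKM at the 8/16-cell stage. The stages lay more than a factor of 10 apart in both treatments. The log2 difference was -4.06 in KD (SE 0.41, limma adjusted p 0.000588) and -4.96 in NC embryos (SE 0.41, adjusted p 0.000134). The fall in NC embryos ranked number 2 among the 11761 genes, and that in KD embryos number 10.

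OOSP2 was the most abundant of the 6 before its loss. It stood at 0.980, 4.02 and 2.81 FPKM in KD morulae against 88.1 and 142 FPKM in KD 8/16-cell embryos. In NC embryos it stood at 0.383, 4.76 and 0.707 FPKM in morulae against 185 and 104 FPKM at the 8/16-cell stage. Replicate 2 was the high library among the morulae of each treatment, and yet it stayed far under the 8/16-cell values. The log2 difference was -5.07 in KD (SE 0.58, limma adjusted p 0.000938) and -5.87 in NC embryos (SE 0.58, adjusted p 0.000247), ranks 5 and 1 among all falls. Across the pseudocount and scaling alternatives, the rank of OOSP2 stayed between 5 and 9 in KD and between 1 and 2 in NC embryos, and that of BMP15 between 10 and 13 and between 2 and 3.

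GDF9, which drives cumulus expansion together with BMP15, was less abundant than either in 8/16-cell embryos. GDF9 levels were 0.630, 1.10 and 0.834 FPKM in KD morulae against 7.64 and 12.4 FPKM in KD 8/16-cell embryos, and 0.512, 1.04 and 0.272 FPKM in NC morulae against 16.2 and 8.89 FPKM in NC 8/16-cell embryos. The log2 difference was -2.55 in KD (SE 0.32, limma adjusted p 0.00135) and -3.05 in NC embryos (SE 0.32, adjusted p 0.000293). In a RefSeq annotation of another build (ARS-UCD2.0) none of the 6 genes overlaps another gene, and GDF9 lies beside UQCRQ, a subunit of the respiratory chain.

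ZP3, the zona protein that forms filaments with ZP2, stood at 1.997, 3.57 and 3.25 FPKM in KD morulae against 21.0 and 15.6 FPKM in KD 8/16-cell embryos. In NC embryos it stood at 3.30, 1.73 and 3.27 FPKM in morulae against 18.1 and 16.3 FPKM at the 8/16-cell stage. The log2 difference was -2.30 in each treatment (SE 0.27, limma adjusted p 0.00102 in KD and 0.000479 in NC embryos). In morulae ZP3 was the most abundant of the 6 genes by group mean, at 2.94 ± 0.83 FPKM in KD and 2.77 ± 0.90 FPKM in NC morulae (SD, n = 3 each).

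ZP4, a further filament protein of the coat, stood at 0.981, 1.96 and 2.17 FPKM in KD morulae against 9.17 and 10.1 FPKM in KD 8/16-cell embryos, and at 0.615, 1.97 and 2.38 FPKM in NC morulae against 13.8 and 9.57 FPKM in NC 8/16-cell embryos. ZP2, the zona protein that is cleaved after fertilization, stood at 0.980, 1.03 and 1.17 FPKM in KD morulae against 7.57 and 7.92 FPKM in KD 8/16-cell embryos, and at 0.530, 0.873 and 2.37 FPKM in NC morulae against 6.69 and 6.24 FPKM in NC 8/16-cell embryos. Both fell in both treatments, with log2 differences for ZP4 of -2.002 in KD (limma adjusted p 0.00429) and -2.31 in NC embryos (0.00131), and for ZP2 of -2.09 in KD (0.00239) and -1.81 in NC embryos (0.00221).

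**Figure D2:**
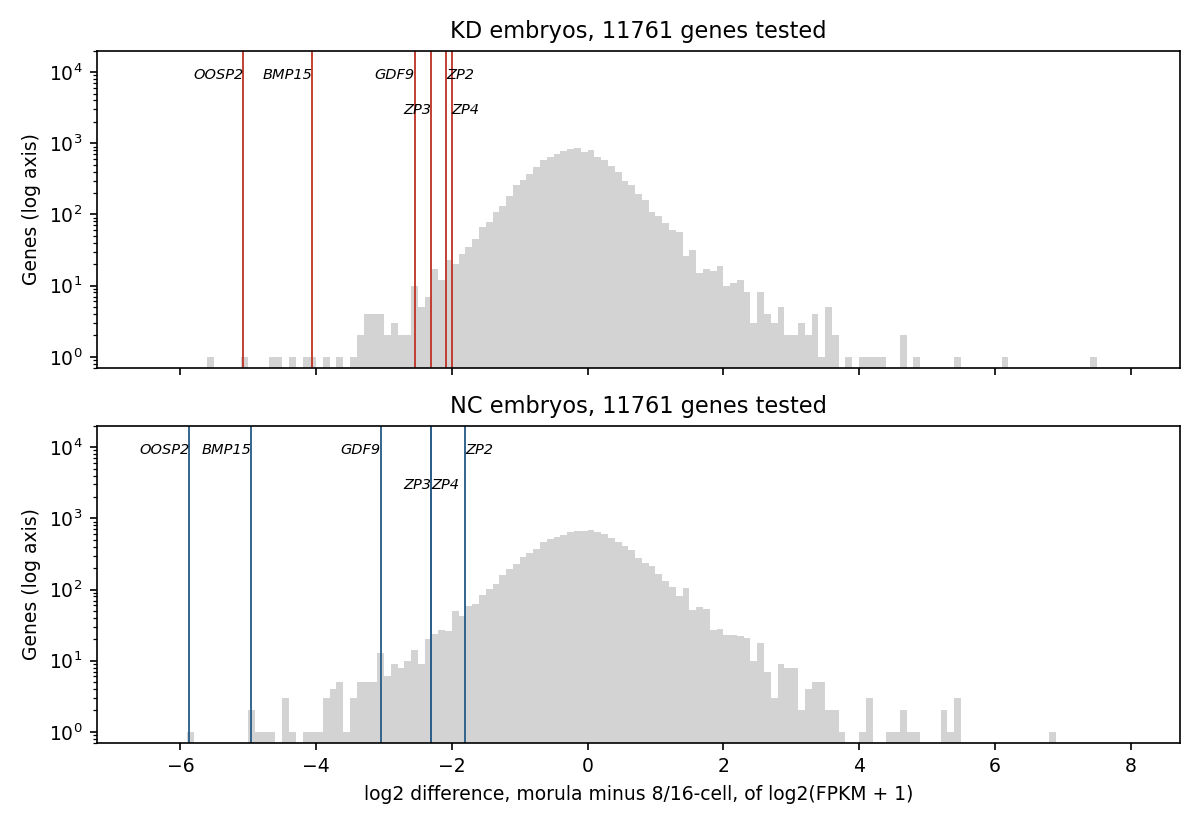
Histogram of the log2 difference, morula minus 8/16-cell, of 11761 genes in KD embryos (upper panel) and NC embryos (lower panel), with the number of genes on a log axis in bins of 0.1. Vertical lines mark the 6 oocyte genes, which all lie in the left tail; 3 genes of the KD panel and 1 gene of the NC panel lie outside the axis.

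On the linear scale OOSP2, BMP15 and GDF9 kept lower mean shares than the zona genes. The share of the 8/16-cell mean left in morulae was 2.26% ± 1.33 for OOSP2, 4.17% ± 1.98 for BMP15 and 8.50% ± 2.33 for GDF9 in KD embryos, and 1.35% ± 1.69, 1.52% ± 1.12 and 4.85% ± 3.14 for the same genes in NC embryos (SD over 3 morula libraries). For the zona genes it was 13.7% ± 1.26 for ZP2, 16.1% ± 4.55 for ZP3 and 17.7% ± 6.60 for ZP4 in KD embryos, and 19.5% ± 15.2, 16.1% ± 5.21 and 14.2% ± 7.90 in NC embryos. Between different libraries these shares overlapped. In KD embryos GDF9 in replicate 2, at 10.9%, reached ZP4 at 10.2% and ZP3 at 10.9% in replicate 1. In NC embryos ZP4 in replicate 1, at 5.26%, lay below GDF9 in replicate 2, at 8.30%. Within each morula library, the shares of OOSP2, BMP15 and GDF9 all lay below those of the zona genes. In NC replicate 1, for instance, GDF9 stood at 4.08% and ZP4 at 5.26%. The SDs cover the morula libraries alone, since the 8/16-cell mean rests on 2 libraries. Among genes with at least 5 FPKM at the 8/16-cell stage the median share left was 81.7% in KD (7727 genes) and 90.7% in NC embryos (7668 genes), and 0.531% and 1.03% of genes were at or under 10%. Lower shares than that of OOSP2 were found for 11 genes in KD and 10 in NC embryos, and lower ones than that of BMP15 for 15 and 13.

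**Figure D3:**
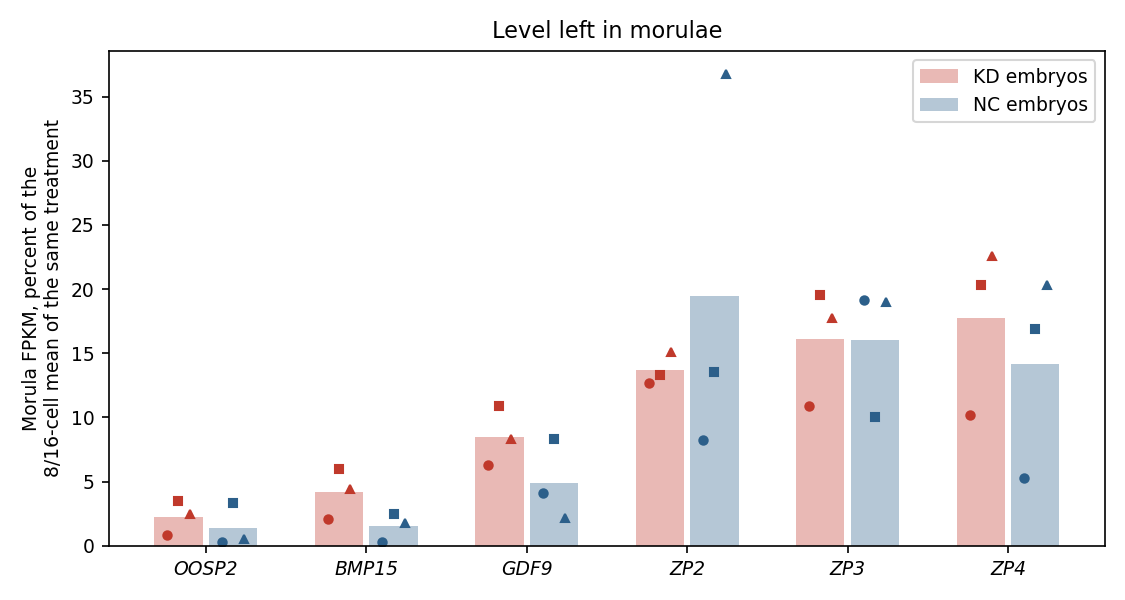
Morula FPKM as a percent of the 8/16-cell mean of the same treatment; bars are means of 3 morula libraries, points are those libraries with marker shapes for replicate 1 (circle), 2 (square) and 3 (triangle), red is KD and blue is NC. OOSP2 and BMP15 sit lowest in both treatments, at or below 5.996%, with NC replicate 3 of ZP2 standing apart at 36.7%.

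Ratios within single libraries did not all divide by product. The ratio of BMP15 to ZP3 was 0.0501 to 0.835 over the 6 morula libraries and 1.81 to 4.18 over the 4 libraries of the 8/16-cell stage. BMP15 was thus above ZP3 in every 8/16-cell library and below it in every morula library. The ratio of GDF9 to ZP3 overlapped between the stages, at 0.0833 to 0.603 in morulae and 0.364 to 0.896 in 8/16-cell embryos. That of OOSP2 to GDF9, neither of them a zona gene, did not overlap, at 0.748 to 4.56 in morulae and 11.4 to 11.7 in 8/16-cell embryos. By the mean over the 4 libraries the order at the 8/16-cell stage was OOSP2, BMP15, ZP3, GDF9, ZP4 and ZP2. OOSP2, BMP15 and ZP3 did not overlap with each other over the 4 libraries. GDF9 (7.64 to 16.2 FPKM) overlapped with ZP4 (9.17 to 13.8 FPKM), with ZP2 (6.24 to 7.92 FPKM) and with ZP3 (15.6 to 21.0 FPKM). Over the 6 morula libraries GDF9 (0.272 to 1.10 FPKM) lay below ZP3 (1.73 to 3.57 FPKM) in full, and every other pair of the 6 genes overlapped, so most of the order at that stage was not resolved.

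The remnant in KD morulae was not distinguishable from that in NC morulae for any of the 6 genes. BMP15 came closest: its KD mean was 2.07 ± 0.99 FPKM and its NC mean 0.873 ± 0.64 FPKM (SD, n = 3 each), with a log2 difference of 0.73 (SE 0.36, 95% interval -0.08 to 1.53, limma adjusted p 0.278). In limma 0 of 6 genes passed, and 0 had an unadjusted p under 0.05, where 0.697% of all genes passed. With the replicate pairs as a block 11.9% of all genes passed and again 0 of 6, with an adjusted p of 0.115 for BMP15. The labels give replicate numbers but state no pairing. The morula numbers were taken as pairs because same-numbered libraries deviated together across the genes of these data. By these pairs BMP15 was higher in KD than in the NC library of the same number by 6.21, 2.10 and 2.14 times. GDF9 was higher by 1.23, 1.05 and 3.07 times. A higher KD value in all 3 pairs was found for 19.9% of all genes, and among the 6 for BMP15 and GDF9 alone. The KD and NC libraries overlapped for all 6 genes, while 8.44% of all genes lay higher in KD morulae without overlap.

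OOSP2 averaged 2.60 ± 1.53 FPKM in KD and 1.95 ± 2.44 FPKM in NC morulae (log2 difference 0.49, 95% interval -0.65 to 1.64, limma adjusted p 0.618), and the KD library was the higher in 2 of 3 pairs. GDF9 had a log2 difference of 0.22 (95% interval -0.40 to 0.85, adjusted p 0.683). The zona genes lay close to 0 on this scale, ZP3 at 0.07 (-0.46 to 0.61), ZP4 at 0.07 (-0.60 to 0.73) and ZP2 at -0.05 (-0.65 to 0.55), with limma adjusted p-values of 0.891 to 0.935. The zona intervals therefore reach 0.73 on the log2 scale, and those of BMP15 and OOSP2 reach 1.53 and 1.64. In the same libraries RN18S1, an 18S ribosomal RNA, had 9053, 8553 and 11581 FPKM in KD morulae against 2704, 2983 and 8611 FPKM in NC morulae, and its part in these values was not tested.

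Before the loss, at the 8/16-cell stage, no difference between the treatments was detectable either. In limma 0 of 6 genes passed and 0 had an unadjusted p under 0.05, where 0.017% of all genes passed. BMP15 averaged 49.7 ± 16.6 FPKM in KD and 57.5 ± 25.9 FPKM in NC embryos, and OOSP2 averaged 115 ± 38.0 and 144 ± 57.6 FPKM (SD, n = 2 each). The log2 differences ran from -0.31 for OOSP2 to 0.23 for ZP2, and ZP2 was the single gene whose KD libraries both lay above the NC libraries, a pattern found for 19.3% of genes. None of the 6 had both KD libraries below the NC libraries, which 13.9% of genes had. The difference between the treatments' effects at the stages, which is also the difference between their losses, passed for 0 of 6 genes (limma, 0 at an unadjusted p under 0.05, 0.017% of all genes passing), with the largest estimate for BMP15 at 0.90 (95% interval -0.37 to 2.16, adjusted p 0.619).

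Within the 8/16-cell stage GDF9, BMP15 and OOSP2 varied together, ZP4 had a like order, and ZP2 and ZP3 did not follow them. NC replicate 1 was the highest and KD replicate 1 the lowest library for GDF9, OOSP2, BMP15 and also ZP4, with the highest library 1.99 to 2.12 times the lowest for GDF9, OOSP2 and BMP15. ZP2 and ZP3 varied by 1.27 and 1.35 times and in other orders. OOSP2 stood at 11.5 and 11.4 times GDF9 in the KD libraries and at 11.4 and 11.7 times in the NC libraries, a coefficient of variation of 1.10%. Of 7732 genes with at least 5 FPKM at this stage, 0 kept a more even ratio to GDF9, and the median coefficient of variation was 33.1%. BMP15 stood at 4.97 and 4.94 times GDF9 in KD and at 4.66 and 4.41 times in NC embryos (5.56%, with 8 genes more even). For ZP2, ZP3 and ZP4 the coefficient against GDF9 was 34.8%, 42.6% and 18.8%. This ratio was chosen after the values were seen, rests on 4 libraries and is a description without a test.

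**Figure D4:**
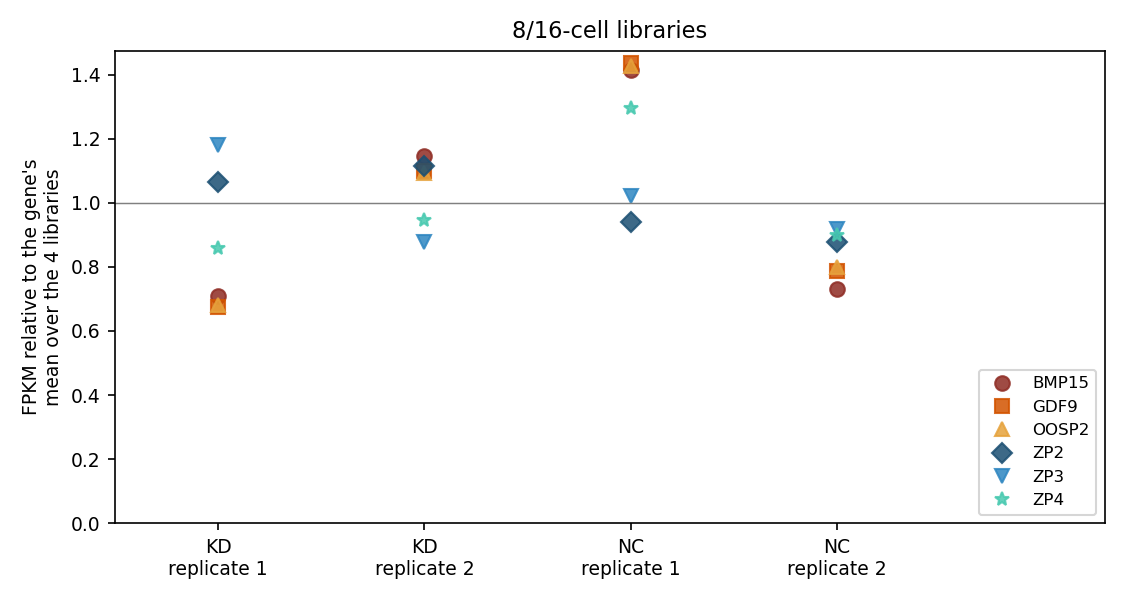
FPKM of each gene divided by its mean over the 4 libraries of the 8/16-cell stage, by library, with KD libraries to the left of NC libraries. GDF9, OOSP2 and BMP15 lie close together in every library, while ZP2 and ZP3 stand apart from them in KD replicate 1 and NC replicate 1.

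The same pair of libraries was high for other oocyte messages. NC replicate 1 and KD replicate 2 both lay above NC replicate 2 and KD replicate 1 for 4 of the 6 genes (BMP15, GDF9, OOSP2 and ZP4), for 12 of 24 other oocyte transcripts tested, among them MOS, BTG4 and CPEB1, and for 22.1% of all genes. In morulae the ratio of OOSP2 to GDF9 was far less even, at 1.55, 3.67 and 3.37 in KD and 0.748, 4.56 and 2.60 in NC libraries. The number of fragments behind these low values is not known from FPKM.

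The 10 genes whose profiles over the 10 libraries lay nearest to the mean profile of the 6 were LHFPL3, ACCSL, SAXO1, LOC112446404, LOC517884, NLRP8, LOC101904481, DIRAS2, TRIM77 and SLBP2. The measure was the root mean square difference of centred log2(FPKM + 1) values, which ran from 0.25 for LHFPL3 to 0.36 for SLBP2. SLBP2 is the oocyte form of the protein that binds histone messages, and NLRP8 belongs to a family with several oocyte members. ACCSL stood at 1.22, 3.26 and 2.79 FPKM in KD and 1.40, 1.42 and 2.21 FPKM in NC morulae, against 25.7 and 37.7 FPKM in KD and 40.1 and 32.3 FPKM in NC 8/16-cell embryos. The nearest single gene was BTG4, an adaptor of maternal message decay, for BMP15 (0.35), EIF4E1B, an oocyte form of the cap-binding protein, for OOSP2 (0.77), DIRAS2 for GDF9 (0.20), SBSPON for ZP2 (0.16), FBXL4 for ZP3 (0.22) and TECTB, a tectorin that itself carries a zona pellucida domain, for ZP4 (0.22). Each of these profiles holds the difference between the stages, which other oocyte genes share.

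Among themselves ZP2 and ZP4 were the nearest pair (0.30), followed by ZP2 and ZP3 (0.37) and ZP3 and ZP4 (0.40). BMP15 and OOSP2 were 0.60 apart. GDF9, with its smaller fall on this scale, lay nearer to ZP4 (0.47) than to BMP15 (0.90).

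Other oocyte transcripts fell as well, by less at the median on the log2(FPKM + 1) scale. A fall on that scale depends on the level of the gene, so these medians do not rank the shares left in morulae. Of 30 listed 24 were tested; 19 fell in KD (median log2 difference -1.67) and 20 in NC embryos (-2.44), and none rose. Between treatments 0 of 24 passed in morulae (limma), 7 had an unadjusted p under 0.05 (21.2% of all genes did), 19 had a positive difference and the median was 0.27, beside -0.08 over all genes. The kinase gene MOS stood at 4.67 ± 3.28 FPKM in KD and 0.892 ± 0.33 FPKM in NC morulae (log2 difference 1.42, limma adjusted p 0.0908). RSPO2, an activator of Wnt signalling, stood at 19.0 ± 5.01 FPKM in KD and 9.14 ± 2.67 FPKM in NC morulae (0.99, adjusted p 0.0722), with UCHL1 at 1.99 (adjusted p 0.0762) and YBX2, a binder of stored messages, at 0.60 (0.0804). With the replicate pairs as a block, 5 of 24 rose in KD morulae, where 3.89% of all genes rose, and none fell. The 5 were UCHL1 (limma adjusted p 0.00308), RSPO2 (0.0101), KHDC3L (0.0305), YBX2 (0.0332) and MOS (0.0485). These p-values depend on a pairing that was taken from these same data and that the labels do not state. UCHL1 stood at 6.03, 17.0 and 35.6 FPKM in KD and 1.49, 3.57 and 5.48 FPKM in NC morulae. It was also higher in KD before the fall, at 60.0 and 47.1 FPKM against 18.7 and 26.0 FPKM in NC 8/16-cell embryos (log2 difference 1.23). Its difference between the treatments' losses was 0.76 (limma adjusted p 0.773). At the 8/16-cell stage RSPO2 stood at 0.23, KHDC3L at -0.42, YBX2 at -0.12 and MOS at -0.47, and none of the 24 passed. In the fit with the replicate pairs as a block, 4 of 15 cumulus and granulosa markers rose in KD morulae. The part of these markers in the values of the oocyte transcripts was not tested. The list of oocyte transcripts includes H1FOO itself.

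Of 7 listed transcription regulators of the oocyte 4 were tested. SOHLH1, SOHLH2, LHX8 and TAF4B fell in KD embryos (log2 differences -1.12, -1.37, -1.11 and -1.01). TAF4B also fell in NC embryos (-1.52). In NC embryos SOHLH1 stood at -0.86, SOHLH2 at -0.35 and LHX8 at -0.81 without passing (limma adjusted p 0.0725, 0.406 and 0.0520). The difference between the treatments' changes passed for none of the 4. SOHLH2 stood at 6.65 ± 2.54 FPKM in KD and 12.7 ± 3.41 FPKM in NC morulae (limma adjusted p 0.111). FIGLA, which in the mouse switches on the zona genes, had 0.340 FPKM in KD morula replicate 1, was listed at 0 in the other 5 morula libraries, and ran from 0.702 to 1.73 FPKM at the 8/16-cell stage; NOBOX stayed under 1 FPKM throughout. Of 11 listed genes of the egg coat and egg surface 5 were found and 3 tested. ASTL, the protease that cleaves ZP2 after fertilization, fell by 1.38 in KD and 1.36 in NC embryos on the log2 scale. The membrane proteins CD9 (1.39) and CD81 (1.73) rose in NC embryos, while in KD embryos they stood at 0.53 and 0.67 and did not pass. The difference between the treatments' changes passed for neither (limma adjusted p 0.587 for CD9 and 0.645 for CD81). CD81 stood at 77.5, 18.0 and 21.1 FPKM in NC morulae, so its mean there leans on replicate 1. In KD morulae it stood at 25.6, 18.0 and 13.7 FPKM.

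Pathway lists of receptors, SMAD genes, inhibitors, convertases and targets of the BMP, GDF and activin families held 24 tested genes. They are not confined to the genes that GDF9 and BMP15 use. Of the 24, 4 fell in KD embryos (16.7%, beside 14.8% of all genes) and 7 in NC embryos (29.2%, beside 18.2%). Of 8 receptors tested, ACVR2B fell in KD (-1.01) and NC embryos (-1.28), and BMPR1A (0.96) and ACVR1 (1.14) rose in NC embryos. BMPR1B, the type I receptor of BMP15, stood at 0.909 ± 0.74 FPKM in KD and 0.419 ± 0.33 FPKM in NC morulae. BMPR2 (-0.28 in KD, -0.23 in NC embryos) and TGFBR1 (-0.42 in KD, 0.05 in NC embryos) did not pass between the stages in either treatment. Of 5 SMAD genes tested, SMAD1 rose in both treatments (0.69 in KD, 1.13 in NC) and SMAD3 rose in NC embryos (0.87). The convertases that could cleave the precursors, FURIN and PCSK7, did not pass in either treatment. Of 5 inhibitors tested, CHRD, a BMP binder, fell in both treatments (-0.91 in KD, -1.40 in NC), and FSTL3, an activin binder, fell in NC embryos (-1.86).

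Among target genes of BMP signalling, ID3 fell in both treatments (-3.13 in KD, -4.40 in NC) and so did ID1 (-0.87 and -1.26), while ID2 and ID4 fell in NC embryos (-1.57 and -0.90). The difference between the treatments' changes from stage to stage passed for none of the 24 tested genes of these pathway lists. Between treatments in morulae, none of them passed in limma, and 8 of 24 had an unadjusted p under 0.05 (33.3%, beside 21.2% of all genes). With the replicate pairs, which were taken from these same data, as a block, 3 calls were made out of 24 genes, where 11.9% of all genes passed. In KD morulae FSTL3 (1.47, limma adjusted p 0.00489) and ID2 (0.92, 0.0110) rose and SMAD3 (-0.78, 0.0259) fell. ID3 stood at 5.85 ± 4.69 FPKM in KD and 1.77 ± 0.15 FPKM in NC morulae (1.08, adjusted p 0.159).

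Markers of the cumulus and granulosa cells that receive the growth factors ran from 0 to levels above those of the zona genes. SERPINE2 stood at 23.4 to 45.9 FPKM in KD and 45.0 to 75.8 FPKM in NC morulae. VIM stood at 3.44, 11.0 and 43.3 FPKM in KD and 0.346, 5.40 and 5.42 FPKM in NC morulae, and at 31.9 and 41.5 FPKM in KD and 16.4 and 20.3 FPKM in NC 8/16-cell embryos. The summed level of the 24 markers was 77.0 to 157 FPKM in KD and 84.7 to 96.0 FPKM in NC morulae. At the 8/16-cell stage it was 184 to 192 FPKM in KD and 113 to 121 FPKM in NC embryos. SERPINE2 alone held 75.8, 50.1 and 45.0 FPKM of the NC morula sums of 96.0, 92.1 and 84.7 FPKM. In KD morulae it held 45.9, 23.4 and 35.0 FPKM of sums of 77.0, 84.7 and 157 FPKM. Of the 10 defining markers 1, FSHR, was at 0 in every library, and the sum of the 10 was 4.77 to 11.5 FPKM in KD and 5.11 to 7.14 FPKM in NC morulae, and 17.9 to 32.9 FPKM in KD and 14.8 to 16.8 FPKM in NC 8/16-cell embryos. Of 15 tested markers 3 fell between the stages in KD embryos, where 14.8% of all genes fell. In NC embryos 3 fell and 1 rose, where 18.2% of all genes fell and 12.6% rose. Between treatments in morulae 0 of 15 passed (limma, 6 at an unadjusted p under 0.05, beside 21.2% of all genes), and with the replicate pairs as a block 4 rose in KD morulae (3.89% of all genes), among them VIM (1.80, adjusted p 0.00881), and 1 fell. Sperm markers summed to 8.94 to 13.7 FPKM in KD and 5.94 to 10.5 FPKM in NC morulae. At the 8/16-cell stage they summed to 1.36 to 1.98 FPKM in KD and 3.72 to 7.05 FPKM in NC embryos. TNP1 carried most of the morula sums, at 9.50, 10.2 and 5.16 FPKM in KD and 7.42, 5.11 and 5.64 FPKM in NC morulae. TNP2 reached 4.19 FPKM in NC morula replicate 3 and ZPBP 1.09 FPKM in KD morula replicate 2. PRM1, PRM2, ODF1, AKAP4, ZPBP2, SPACA1, IZUMO1 and ACR stayed at or below 0.907 FPKM in all 10 libraries. Of 2 tested markers 1, TNP1, rose between the stages in KD embryos, where 5.22% of all genes rose. Of 3 blood and immune markers tested 0 passed in any comparison (limma, 1 at an unadjusted p under 0.05, between the stages in KD embryos), and their list summed to 173 to 296 FPKM in KD and 128 to 206 FPKM in NC morulae. HBA and HBA1 carried most of that sum (239 and 51.5 FPKM in KD morula replicate 3). HBB had 1.59 FPKM in KD 8/16-cell replicate 1 and was listed at 0 in every morula library. CD68 ran from 1.89 to 5.27 FPKM over the 10 libraries, and CD14 reached 1.93 FPKM in NC morula replicate 3. PTPRC, CD3E, LYZ and TYROBP stayed at or below 0.550 FPKM in all 10 libraries. The part of these cells in the values of the 6 genes was not tested, and in such bulk libraries fewer cells of a kind and less RNA per cell cannot be told apart.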

How the data were processed

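The deposited values are FPKM in a table of genes by 10 libraries. Per the submitters' processing notes, the authors used Trimmomatic, HISAT2, featureCounts and Cufflinks and name the genome as ARS-UCD1.2 or bosTau9; versions and the role of each tool are not given in the sources used here. Per the labels' protocols, poly(A) RNA was selected with oligo(dT) and the libraries passed through PCR; strand is not stated. No counts were used, so the depth behind a value is unknown.

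All 10 columns were matched to samples by name and 0 were left over. Symbols with several loci (81) were left out. For these, the 8/16-cell columns repeat 1 value per symbol in all 81 and the morula columns in 6, which shows that the columns of the stages differ in how such symbols were filled; whether this bears on other genes was not tested.

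Values were transformed to log2(FPKM + 1), and genes averaging 1 FPKM or more were tested with limma 3.58.1 in R 4.3.3 (limma-trend, 4 group means, 6 residual and 4.63 prior degrees of freedom, two-sided, Benjamini-Hochberg over 11761 genes, threshold 0.05). The script was tested on simulated data. Same-numbered KD and NC libraries deviated together in all 3 morula pairs (r = 0.370, 0.325 and 0.312 across genes). Those numbers were therefore taken to pair them, which the labels do not state. Named genes were the 6, the 10 nearest profiles, the nearest to each, and up to 4 of each list by smallest p between treatments in morulae, H1FOO and RN18S1; other genes, such as FIGLA, NOBOX and ACVR2B, were named after their values were seen, where a count is small or a role bears on the 6. The members and lists were chosen with earlier results of these data known. Alternatives were another pseudocount, other filters, 3 scalings, the replicate block, separate fits and leaving out each library.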

Additional observations from a re-analysis of the deposited data

How the results depend on the processing

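The 6 falls between the stages passed in both treatments under every pseudocount, scaling, separate fit, replicate block and left-out library tried (6 of 6 each time), and for the 4 genes that a filter at a mean of 5 FPKM leaves. Under the left-out libraries the log2 difference of BMP15 ran from -4.40 to -3.72 in KD and from -5.42 to -4.49 in NC embryos. Between treatments and for the interaction, none of the 6 (4 at the stricter filter) passed under any alternative, the replicate block included, where the adjusted p of BMP15 in morulae was 0.115. The block was also fitted at the 8/16-cell stage, where same-numbered libraries did not deviate together (r = 0.0558), and across stages, where 2 numbers are shared; it changed no call of the 6 there. Several differences between treatments, none of which passed, changed sign. In morulae ZP2 stood at 0.0103 with a pseudocount of 0.1 FPKM and ZP4 at -0.00198 with quantile normalization. With equal sums, which moves the median of all genes at the 8/16-cell stage to -0.32, against 0.01, ZP2 stood at -0.12 and ZP3 at -0.31 there, and the interaction of ZP2 at 0.10. Over left-out libraries the difference at the 8/16-cell stage ran from -0.64 to 0.30 for BMP15, -0.68 to 0.12 for GDF9, -0.13 to 0.27 for ZP3, -0.48 to 0.00565 for ZP4 and -0.72 to 0.11 for OOSP2; those of BMP15, GDF9 and OOSP2 turned positive without KD replicate 1 or without NC replicate 1. In morulae it ran from -0.29 to 0.28 for ZP2, -0.14 to 0.26 for ZP3 and -0.26 to 0.28 for ZP4, and the interaction from -0.52 to 0.0534 for ZP2, -0.21 to 0.21 for ZP3 and -0.0211 to 0.55 for ZP4. The cause was not tested. Over all genes the 82 calls between treatments in morulae became 1398 with the replicate block, 3 with equal sums, 6 without a filter, 139 at a mean of 5 FPKM and 0 with the stage fitted alone. They were 527 without KD morula replicate 1, 41 without NC morula replicate 2, and at most 2 without any other single library. The 1741 falls in KD embryos became 595 and 506 without KD 8/16-cell replicates 1 and 2 and 807 and 1144 without KD morula replicates 1 and 2; the 2142 in NC embryos became 769 and 1102 without NC 8/16-cell replicates 1 and 2. Depth is unknown, which limits what can be said of values near 1 FPKM.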
